A study of Mus musculus with 107 samples.

Results

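The Obox genes are a family of homeobox genes expressed in the mouse egg and early embryo, and 6 of them, Obox1, Obox2, Obox3, Obox5, Obox6 and Obox7, were taken by name from a count table of 21564 genes. All 6 were present. Obox1, Obox2, Obox5 and Obox7 passed the filter on low counts in every comparison, and Obox3 and Obox6 passed it only in the fit that holds the activated eggs. The table covers 107 single eggs of C57BL/6J females, each sequenced by Smart-seq2, a method that copies whole polyadenylated transcripts of 1 cell without marking their strand. Of these eggs, 29 were wildtype, 61 were mos -/- (homozygous for loss of Mos, the kinase that keeps the egg arrested at metaphase II) and 17 were wildtype eggs activated with strontium, which starts development without sperm.

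Females were 2 to 3 months old and had received 5 IU of pregnant mare serum gonadotropin 48 h before collection. In every group, oocytes were isolated from ovaries in 2.5 µM milrinone and matured in culture, and all were taken at 38 to 40 h after breakdown of the germinal vesicle. The activated eggs were held in 10 mM strontium chloride for 2 h in calcium-free medium after 15 to 16 h of maturation. The mutant eggs carried the names M1 (22 eggs), M2 (18 eggs) and M3 (21 eggs), which the labels do not define. A deposited egg table also gives a growth number, not defined there, which was 1 for all M1, 2 for all M2, 3 for all M3 and 1 for all wildtype eggs, so that mutant name and growth number cannot be told apart. Batch 1 held 5 wildtype and 9 mutant eggs, and batch 2 held 24 wildtype, 52 mutant and all 17 activated eggs. Within batch 2 the mutant eggs were on library plates 1 and 2, the wildtype eggs on plate 3 and the activated eggs on plate 4, so that within this batch plate and group cannot be told apart.

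Obox proteins bind DNA through a paired-like homeodomain, a fold that inserts a recognition helix into the major groove. In the mouse, Obox1, Obox2, Obox5 and Obox7 are stored as maternal transcripts in the oocyte, whereas Obox3 is transcribed mainly after fertilisation. Maternal and zygotic members act redundantly in genome activation, the first large wave of embryonic transcription, where they help RNA polymerase II to reach its targets. Obox6 is best known for promoting the reprogramming of fibroblasts to pluripotency.

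The 6 genes lay in a cluster on chromosome 7 (GRCm38, GENCODE M21). Obox7 was at chr7:14659496-14665996 and Obox2 at chr7:15388721-15398545, both on the plus strand. Obox1, at chr7:15388948-15556866, was also on the plus strand, and its gene model began inside that of Obox2, with 59 exon bases in common. Obox3 was at chr7:15479825-15639902 on the minus strand, Obox5 at chr7:15750131-15759800 on the plus strand and Obox6 at chr7:15833241-15839678 on the minus strand. The members differ in how well reads can tell them apart, so a stretch of 60 homeobox bases is shown for each principal transcript. In Obox1 it codes for the region around the recognition helix. For the other members the best matching stretch of the transcript is shown, with bases that differ from Obox1 in capitals.
Obox1: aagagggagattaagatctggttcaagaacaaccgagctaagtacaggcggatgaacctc
Obox2: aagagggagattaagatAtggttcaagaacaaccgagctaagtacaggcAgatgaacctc
Obox3: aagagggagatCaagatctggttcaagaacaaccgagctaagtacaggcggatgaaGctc
Obox5: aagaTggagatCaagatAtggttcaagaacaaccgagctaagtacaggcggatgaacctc
Obox6: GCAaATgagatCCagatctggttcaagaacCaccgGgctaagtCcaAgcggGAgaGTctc
Obox7: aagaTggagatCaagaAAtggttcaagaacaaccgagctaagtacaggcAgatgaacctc
Obox2 and Obox3 differed from Obox1 at 2 of these 60 bases, Obox5 at 3, Obox7 at 5 and Obox6 at 15. Over the 180 bases of the Obox1 homeobox, Obox2 aligned at 179 and in 2 pieces. Whether the stretch is read in the same frame in the other members was not examined.

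Obox1 and Obox2 were the closest pair, with 99.2% identity over 1459 aligned transcript bases. Their annotated coding sequences nevertheless had different lengths, 612 bases in Obox1 and 453 bases in Obox2. Obox6 was the most distant member, with 76.6% to 80.3% coding identity to the other 5. Of all 50-base words in the principal transcript, 59.3% for Obox1 and 63.0% for Obox2 also occurred in another gene, mostly in each other. The share was 32.7% for Obox3, where the other copies were mainly Obox3 pseudogenes, 20.2% for Obox7, 13.02% for Obox5 and 5.02% for Obox6. The authors' counting may have divided or dropped reads from such stretches, so the Obox1 and Obox2 values are uncertain one by one, and the result for their sum is given beside them.

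RefSeq promoter windows (GRCm38.p6, 250 bases before to 50 after the start) were found for 5 of the 6 members. Of these windows, 4 held the letters TATATAA, searched on both strands, against 3.24% of the 32851 promoters of the table. The 30 bases around it are shown because they bear on how alike the members' start regions are, with TATATAA in capitals.
Obox1: agtttgcagagaTATATAAgggcaggtctt
Obox5: agtttgcagagaTATATAAgggcaggtctt
Obox7: agtttgcagagaTATATAAgggcaggtctt
Obox3: agtttggagagaTATATAAgggcaggtctt
The stretches of Obox1 (chr7:15547226-15547255, plus strand), Obox5 (chr7:15750327-15750356, plus strand) and Obox7 (chr7:14659691-14659720, plus strand) were identical. That of Obox3 (chr7:15639790-15639819, minus strand) differed at 1 base. The Obox3 window also held TAATCC, a homeodomain motif of the paired-like class found on either strand in 7.06% of promoters, and the windows of Obox1, Obox2, Obox5 and Obox7 did not. The Obox1 and Obox2 windows were identical over all 203 bases that aligned. The Obox2 window ended at bases that in Obox1 lie before TATATAA. It therefore does not show whether Obox2 holds these letters further on. At the other end, the last 100 transcript bases of Obox1 and Obox2 each held TTTTAT, the core of a cytoplasmic polyadenylation element, 2 times. The motif stood once in Obox7, was not found in Obox3, Obox5 and Obox6, and occurred in 12.7% of 21827 genes.

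Totals ran from 44 to 9132471 counts per egg, with group medians of 6127048 to 8144112 in batch 1 and of 207420 (wildtype) to 796582 (activated) in batch 2. All 20 oocyte markers examined had counts in each of the 9 sums per group and batch, at 8443 to 22510 summed raw CPM (counts scaled to the library's total). Granulosa and cumulus markers summed to 113 to 340 CPM, blood markers to 4.03 to 30.004 CPM and stromal markers to 53.96 to 154 CPM. Ptx3, the haemoglobin genes Hbb-bt, Hba-a1 and Hba-a2, Ptprc, Col1a2 and Lum were at 0 in all 9 sums. Of the count values from 1 to 40, 56.2% were even, an excess over odd values, so intervals based on counting error alone may be too narrow. Mos itself was at 0.868 to 13.3 CPM in the 6 mutant sums and at 6.52 and 31.6 CPM in the wildtype sums of batches 1 and 2, so mutant eggs held Mos counts, and whether these lie in the altered part of the gene was not analysed here. No label ties an egg to an animal or a culture. Eggs were therefore not used as replicates, and tests were run on the 9 sums. The p-values then rest only on the spread of these sums, that is on shifts of a group that were not alike in both batches, and such shifts can be technical.

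Obox2 was the most abundant member in the wildtype and mutant eggs, which were not treated with strontium. In batch 1, Obox2 in the 5 wildtype eggs was at 57.8 CPM at the lowest, 157 at the median and 275 at the highest, and in the 9 mutant eggs at 41.6, 114.6 and 323 CPM. In batch 2, the 24 wildtype eggs had 116, 516 and 1042 CPM, and the 52 mutant eggs 0, 432 and 1146 CPM. Wildtype and mutant ranges overlapped in both batches. The plot of levels by egg shows that all 4 maternal members stood higher in batch 2 than in batch 1. The ratios of summed CPM, batch 2 to batch 1, were 2.45 (Obox1) to 3.37 (Obox7) in wildtype and 2.70 (Obox1) to 4.85 (Obox7) in mutant eggs.

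**Figure D1:**
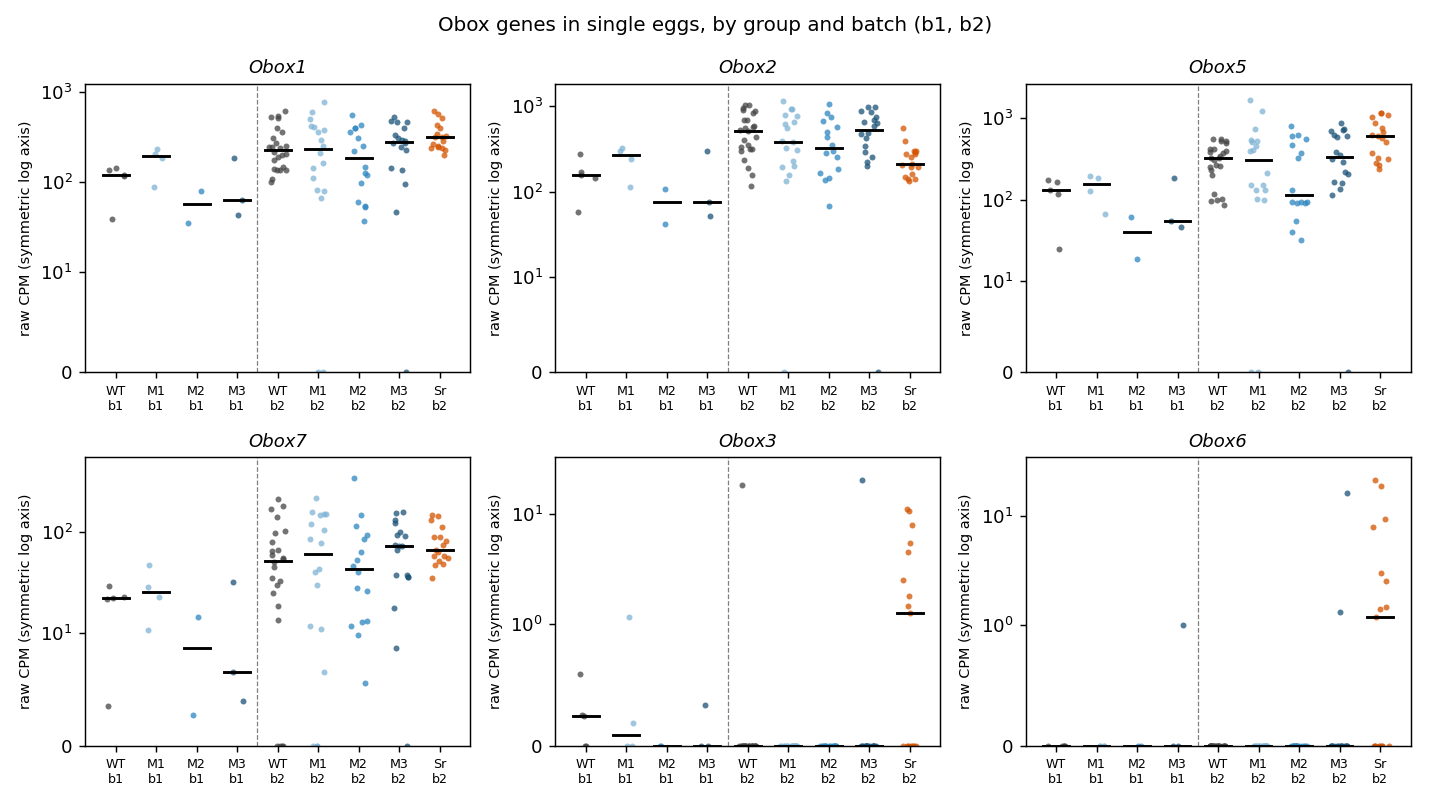
Raw CPM of each Obox gene in single eggs on a symmetric log axis (linear near 0), by group and batch (WT wildtype, M1 to M3 mutant, Sr strontium-activated; b1 and b2 batches 1 and 2). Each point is 1 egg and black lines are medians; Obox2 medians were 516 CPM in wildtype and 211 CPM in activated eggs of batch 2, and Obox6 was above 0 in 9 of 17 activated and in 0 of 29 wildtype eggs.

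Obox1, the near-identical partner of Obox2, stood at 38.7, 119 and 143 CPM (lowest, median, highest) in the wildtype eggs of batch 1 and at 98.1, 224 and 613 CPM in those of batch 2. The mutant eggs had 34.8, 86.4 and 230 CPM in batch 1 and 0, 250.3 and 764 CPM in batch 2. Obox5 stood at 24.97, 130.4 and 172 CPM in wildtype and 18.9, 66.3 and 196 CPM in mutant eggs of batch 1. The genotypes thus overlapped for both genes. In batch 2, Obox5 was at 86.7, 320.4 and 550.3 CPM in wildtype and at 0, 301 and 1637 CPM in mutant eggs. Obox7 was the lowest of the 4 maternal members, at 3.504, 22.2 and 29.1 CPM in wildtype eggs of batch 1 and 0, 51.6 and 208 CPM in those of batch 2. The mutant eggs had 2.77, 14.5 and 46.9 CPM of Obox7 in batch 1 and 0, 58.0 and 337 CPM in batch 2. The mutant eggs at 0 for Obox1, Obox2 and Obox5 in batch 2 were among the 3 eggs with under 10000 counts in all.

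Between genes, levels were compared per kilobase of principal transcript. In the wildtype sum of batch 2, the order was Obox2 at 314 CPM per kilobase, Obox1 at 166, Obox5 at 160, Obox7 at 40.997, Obox3 at 0.186 and Obox6 at 0. Obox1 and Obox5, neighbours in this order, overlapped across eggs in raw CPM. In the activated sum, the order was Obox5 at 380.4 CPM per kilobase, Obox1 at 231, Obox2 at 176, Obox7 at 55.8, Obox6 at 3.41 and Obox3 at 1.42. The place of Obox5 depended on the length used. Divided by the number of 50-base words found in no other gene, per 1000 words, activated eggs had 585 CPM of Obox1, 493.2 of Obox2 and 449 of Obox5, and wildtype eggs of batch 2 had 422, 878 and 189. In both scalings Obox2 ranked first in wildtype eggs and below Obox1 in activated eggs.

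Mutant and wildtype eggs were compared to ask what loss of Mos does to stored transcripts. Of the Obox genes, 4 could be tested on the counts of these eggs, and 0 of these 4 passed (edgeR's quasi-likelihood test with Benjamini-Hochberg adjustment over 13832 genes, threshold 0.05). Of all tested genes, 9.38% passed, 5.36% as higher and 4.03% as lower. With only 4 genes, 0 calls cannot be told from the shares of all genes given here and below. At an unadjusted p under 0.05 the count was also 0 of 4, against 22.2% of all tested genes, and DESeq2 called 0 of the 4 and 1828 genes in all. Obox3 and Obox6 entered this fit through the activated sum and were not tested without it, and Obox6 was at 0 in both wildtype sums, so neither is counted. In a fit without the activated sum, 0 of the 4 passed, against 10.2% of 12338 genes. At an unadjusted p under 0.05 it was again 0 of 4, against 24.5%. In the fit of all 9 sums, the log2 folds of mutant over wildtype, after the batch term, were -0.09 ± 0.21 (SE) for Obox1 and -0.06 ± 0.22 for Obox2. They were -0.15 ± 0.25 for Obox5 and -0.11 ± 0.25 for Obox7. The 95% intervals, a normal approximation that ignores the few residual degrees of freedom, reached from -0.65 (Obox5) to 0.39 (Obox7), and shifts within them could not be told from 0. Within batch 2, all 3 mutant groups were above wildtype for Obox5, by 0.12 to 0.56 on the log2 scale of scaled CPM. Within batch 1, M1 was at 0.04 and M2 and M3 were below wildtype, at -1.59 and -0.28. M2 was the lowest mutant group for all 4 maternal genes in batch 1, where it consisted of 2 eggs.

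Strontium-activated eggs were compared with wildtype and with mutant eggs to set strontium activation beside the arrested eggs and beside loss of Mos. Both comparisons use the same activated sum, and the 2 comparisons with wildtype share the wildtype sums. Obox2 fell and was the only member to pass the test, in a comparison where 13% of all tested genes passed, 5.66% as higher and 7.33% as lower. Obox2 in the 17 activated eggs was at 134 CPM at the lowest, 211 at the median and 553 at the highest, against 116, 516 and 1042 CPM in the 24 wildtype eggs of batch 2. The egg ranges overlapped, with the activated median below that of wildtype. The log2 fold over wildtype was -1.24 ± 0.36 (SE, edgeR, adjusted p = 0.0277). Within batch 2 alone, the activated sum was at 0.446 times the wildtype level in scaled CPM and at 0.562 times in raw CPM. Over mutant eggs the log2 fold was -1.18 ± 0.33 (edgeR, adjusted p = 0.0448), where 4.84% of tested genes passed and 3.43% passed as lower.

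The Obox2 call was lost in some alternatives while its direction was kept in all of them. Over wildtype, edgeR's adjusted p was 0.052 with upper quartile scaling, 0.115 where each plate formed a sum, and 0.852 when the batch term was dropped (log2 fold -0.54). It was 0.21 without the 9 wildtype eggs that had over 35% of their counts in 50 genes (log2 fold -0.86), and 0.000387 with eggs thinned to 60000 counts. With the counts of Obox1 and Obox2 added into 1 value, the log2 fold of activated over wildtype was -0.64 ± 0.33 (edgeR, adjusted p = 0.244) and did not pass. The summed oocyte markers, at 10885 CPM in the activated sum and 22510 CPM in the wildtype sum of batch 2, were also lower in activated eggs. So was the sum of granulosa and cumulus markers, at 113 CPM in the activated sum (14 of 20 with counts, Ptx3, Foxl2 and Amh at 0). That sum was 284 CPM in wildtype (9 of 20 with counts) and 272 CPM in mutant eggs of batch 2. Serpine2 alone was 70.3 CPM of the activated, 247 of the wildtype and 199 of the mutant value. The lower sum was thus mainly that of Serpine2. The part of either marker set in the Obox2 result was not tested.

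Obox5 had the opposite sign in both comparisons but did not pass the test. Its levels in activated eggs were 238 CPM at the lowest, 600.0 at the median and 1148 at the highest, against 86.7, 320.4 and 550.3 CPM in wildtype eggs of batch 2. The ranges overlapped, with the activated median above the highest wildtype egg. The log2 fold was 0.53 ± 0.40 over wildtype (edgeR, adjusted p = 0.46) and 0.68 ± 0.33 over mutant eggs (edgeR, adjusted p = 0.307), and neither passed. Within batch 2, the scaled activated level of Obox5 was 1.89 times that of wildtype. The fitted fold over wildtype rests on both batches, and without the wildtype sum of batch 2 it was -0.04.

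Obox1 was at 199, 309 and 605 CPM in activated eggs and Obox7 at 35.2, 65.9 and 147 CPM, and both ranges overlapped those of wildtype eggs. Obox1 had a log2 fold of 0.05 ± 0.33 over wildtype (edgeR, adjusted p = 0.95) and 0.15 ± 0.29 over mutant eggs (edgeR, adjusted p = 0.859). Obox7 had -0.13 ± 0.40 over wildtype (edgeR, adjusted p = 0.885) and -0.02 ± 0.35 over mutant eggs (edgeR, adjusted p = 1). The 95% intervals over wildtype reached from -0.58 to 0.69 for Obox1 and from -0.92 to 0.66 for Obox7. The signs of both folds turned under some alternatives, as the plot of folds shows.

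**Figure D2:**
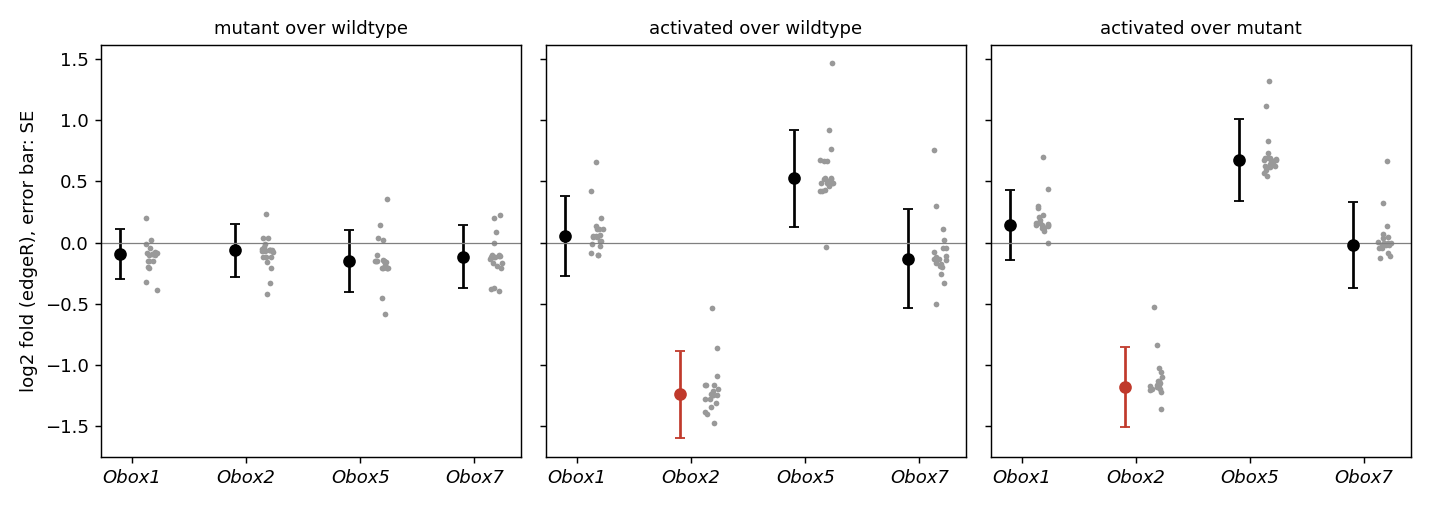
Log2 folds of the 4 maternal Obox genes in 3 comparisons, fitted by edgeR on 9 sums per group and batch. Large points are the fitted folds with their standard errors (red where the adjusted p is under 0.05), and small grey points are the folds under other processing; Obox2 is at -1.24 over wildtype and -1.18 over mutant eggs and stays below 0 throughout.

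A value that does not depend on how libraries are scaled is the share of each gene in the counts of Obox1, Obox2, Obox5 and Obox7 of the same egg, computed in the 104 eggs with at least 20 such counts. The Obox2 share was 12.1% at the lowest, 18.2% at the median and 30.9% at the highest in activated eggs. It was 25.3%, 44.1% and 59.3% in wildtype eggs of batch 2, and 25.3%, 41.6% and 58.7% in 49 mutant eggs of batch 2. Of the 17 activated eggs, 14 lay below every wildtype egg of batch 2, and all 17 lay below the wildtype median. The mean Obox2 share was 19.5% ± 5.41 (SD, 17 eggs) in activated and 44.9% ± 8.32 (SD, 24 eggs) in wildtype eggs. Mutant and wildtype eggs overlapped over nearly their whole ranges.

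The Obox5 share was higher in activated eggs, at medians above those of every other group. The shares of an egg add up to a fixed whole, so a lower Obox2 share by itself raises the others. The rise of the Obox5 share is thus not a result separate from the fall of the Obox2 share. It was 33.7%, 47.5% and 62.3% in activated eggs, against 10.3%, 27.2% and 44.1% in wildtype and 8.19%, 29.8% and 50.1% in mutant eggs of batch 2. All 17 activated eggs lay above both medians. Of them, 10 lay above every wildtype egg and 6 above every mutant egg of batch 2. The Obox1 share was 17.0%, 26.3% and 36.5% in activated and 10.5%, 24.4% and 29.8% in wildtype eggs, with overlapping ranges. The Obox7 share was 2.83%, 6.06% and 11.7% in activated and 0%, 4.96% and 13.7% in wildtype eggs. In batch 1, the Obox2 share was 34.1% to 46.3% in wildtype and 36.1% to 44.1% in mutant eggs, both above the highest activated egg.

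**Figure D3:**
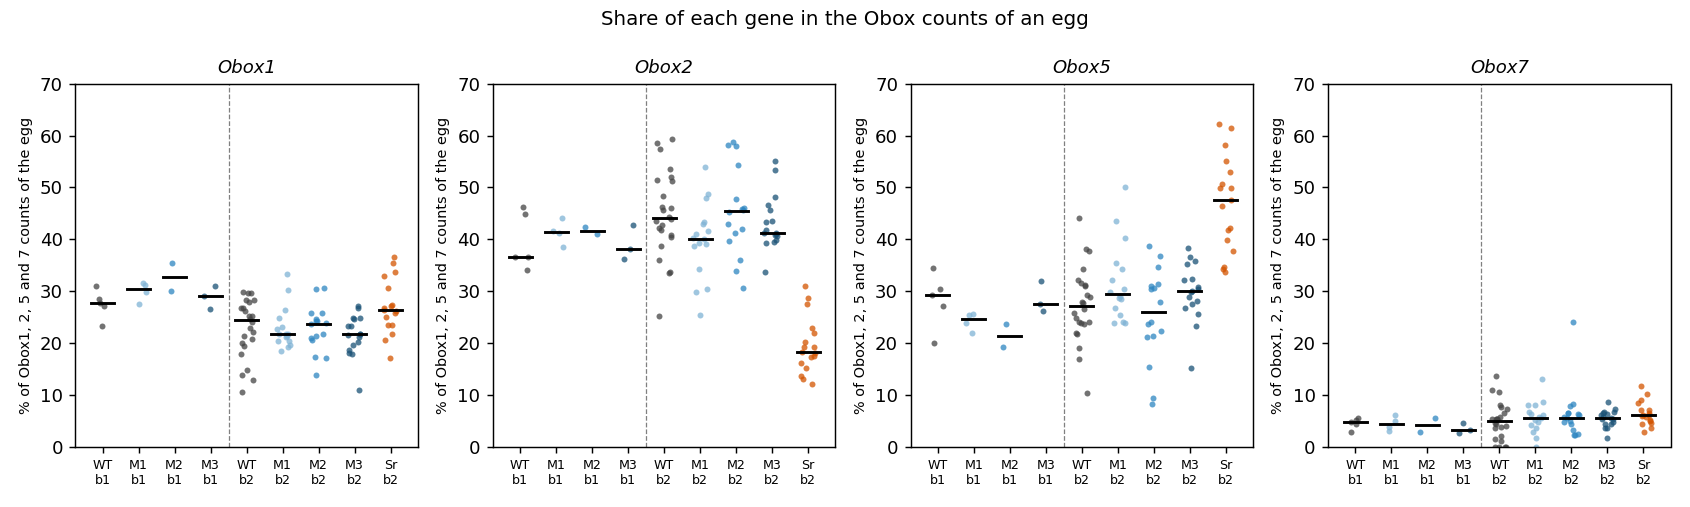
Share of Obox1, Obox2, Obox5 and Obox7 in the summed counts of these 4 genes in each egg, in percent, by group and batch (WT wildtype, M1 to M3 mutant, Sr strontium-activated; b1 and b2 batches 1 and 2). Points are eggs with at least 20 such counts and black lines are medians; the Obox2 median was 18.2% in activated and 44.1% in wildtype eggs of batch 2, and the Obox5 median 47.5% and 27.2%.

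The order of the genes within each of these eggs was counted next. Obox5 had more counts than Obox2 in 17 of 17 activated eggs and in 3 of 24 wildtype and 6 of 49 mutant eggs of batch 2. Among all 87 wildtype and mutant eggs not treated with strontium, it did so in 10. Obox1 had more counts than Obox2 in 15 of 17 activated eggs and in 0 of these 87 eggs. Within the near-identical pair alone, Obox2 held 42.3% of the counts at the median of activated eggs (30.8% to 53.1%) and 64.3% at the median of wildtype eggs of batch 2 (50% to 82.2%). This split rests on how the authors' counting placed reads from shared stretches, which was not tested. The pair together held 44.5% of the counts of the 4 genes at the median of activated eggs (33.3% to 61.3%) and 68.8% in wildtype eggs of batch 2 (50.5% to 83.9%). The ratio of Obox5 to Obox2 counts was 1.12 to 4.55 in activated eggs, with a median of 2.55, and 0.176 to 1.75 in wildtype eggs of batch 2, with a median of 0.591.

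**Figure D4:**
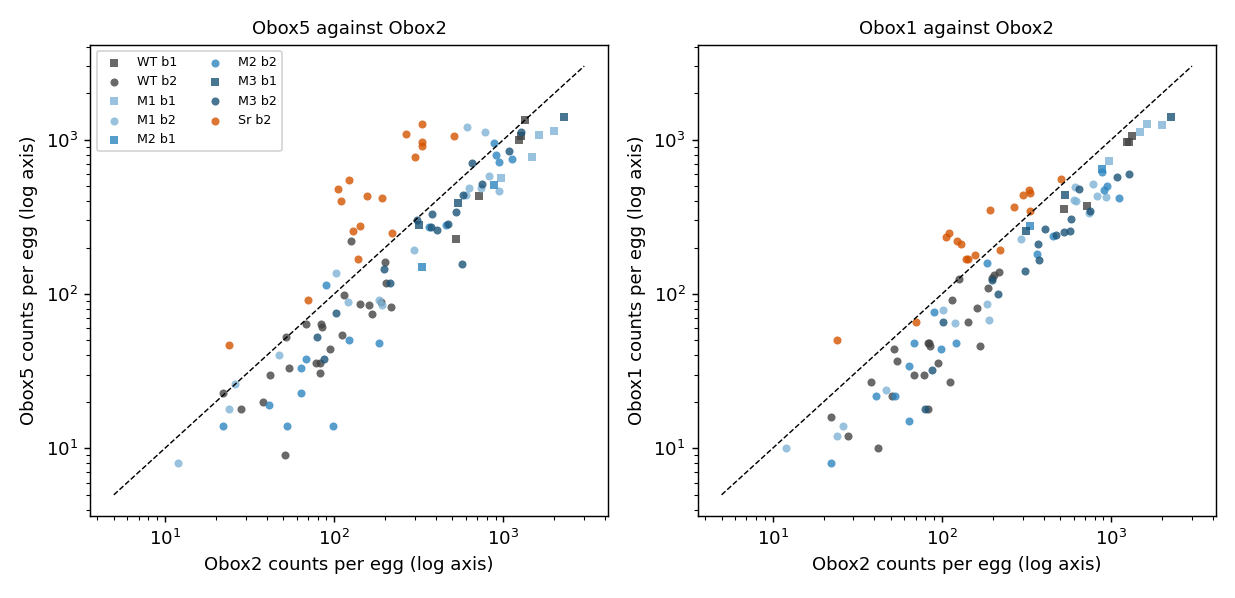
Counts of Obox5 (left) and Obox1 (right) against counts of Obox2 in each egg with at least 20 Obox counts, on log axes, coloured by group (WT wildtype, M1 to M3 mutant, Sr strontium-activated; squares batch 1, circles batch 2). The dashed line marks equal counts. All 17 activated eggs lie above it for Obox5 and 15 of 17 for Obox1, while 0 of 87 wildtype and mutant eggs not treated with strontium lie above it for Obox1.

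These orders were recounted without eggs that stood apart. Without the 9 wildtype eggs of concentrated counts, Obox5 exceeded Obox2 in 3 of 15 wildtype eggs of batch 2 and the median Obox2 share was 43.5%. After thinning each egg to 60000 counts, Obox5 exceeded Obox2 in 17 of 17 activated, 5 of 24 wildtype and 9 of 45 mutant eggs of batch 2. Obox1 then exceeded Obox2 in 12 of 17 activated, 1 of 24 wildtype and 3 of 45 mutant eggs. The activated eggs were all on 1 plate, so that their composition rests on that plate, and the labels do not say how many preparations it held.

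In activated eggs the growth number was 1 for 8 eggs and 2 for the other 9. The median Obox2 share was 18.1% in the former (13.1% to 30.9%) and 19.2% in the latter (12.1% to 28.7%). The Obox5 share had medians of 46.95% and 50.7%, and the ranges overlapped. Across the eggs of batch 2, the 4 maternal genes varied together. The Spearman correlations of their CPM over the 6 gene pairs were 0.459 to 0.717 in 24 wildtype eggs, 0.809 to 0.927 in 49 mutant eggs and 0.402 to 0.738 in 17 activated eggs. The eggs of a group share plates and the values share each egg's total, so these are descriptions.

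Obox6 and Obox3 were the members near 0 in eggs not treated with strontium. Obox6 had 0 counts in 36209306 counts of the wildtype eggs of batch 1 and 0 in 5436993 counts of those of batch 2, which allows up to 0.0829 and 0.552 CPM at 3 counts per sum. It had 62 counts in the activated eggs, 4.59 CPM, at least 8.32-fold higher than in wildtype eggs of batch 2. It had 9 counts in the mutant eggs of batch 2, 0.266 CPM, and the activated level was 17.2-fold higher (95% exact counting interval 8.52 to 39.5). Of these 9 counts, 8 were in M3 egg 8, and without that egg the ratio was 153 on 1 mutant count (26.5 to 6137). These intervals treat each count as independent, although most counts lay in few eggs. They therefore leave out the spread between eggs and between groups of eggs. Obox6 was seen in 9 of 17 activated, 0 of 29 wildtype and 3 of 61 mutant eggs, the latter all M3. After thinning to 60000 counts these were 5 of 17 activated, 0 of 24 wildtype and 1 of 49 mutant eggs of batch 2.

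The Obox6 counts were uneven among activated eggs. Egg 8 had 21, egg 6 had 19, egg 16 had 10 and egg 14 had 6 counts, 5 eggs had 1 or 2, and 8 eggs had 0. Eggs 6 and 8 held 40 of the 62 counts, and the other 15 eggs were at 1.91 CPM. In the fit, Obox6 had an adjusted p of 0.0902 over wildtype and 0.0833 over mutant eggs (edgeR) and passed in neither, and no fold is given over wildtype because that group was at 0. Without the filter on low counts, the comparison with mutant eggs gave an adjusted p of 0.0403, and without M3 egg 8 the values were 0.0558 over wildtype and 0.0541 over mutant eggs (edgeR). The gene passed the filter only through the activated sum, so its being tested depended on its level there.

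Obox3, the zygotic member, had 38 counts in activated eggs (2.81 CPM), 2 in wildtype eggs of batch 2 (0.368 CPM) and 9 in those of batch 1 (0.249 CPM). The activated level was 7.64-fold that of wildtype eggs in batch 2 (95% exact counting interval 1.98 to 65.4) and 9.51-fold that of mutant eggs in batch 2 (4.65 to 21.4). Each of these ratios rests on 1 egg in the denominator, and the intervals leave out the spread between eggs. Both wildtype counts were in wildtype egg 38, and 2 counts lie under the floor of 3 counts in that sum (0.552 CPM). Without that egg wildtype was at 0 and the activated level at least 4.99-fold higher. All 10 mutant counts of batch 2 were in M3 egg 8, and without it the activated level was at least 31.2-fold higher than in mutant eggs. Obox3 had counts in 9 of 17 activated eggs, with 9 counts in egg 3 at the highest, in 4 of 29 wildtype eggs and in 4 of 61 mutant eggs. After thinning to 60000 counts it was seen in 2 of 17 activated, 1 of 24 wildtype and 1 of 49 mutant eggs of batch 2. So few eggs kept a count that this cannot decide whether activated eggs hold Obox3 more often at equal depth. The fitted log2 folds of activated eggs, 2.73 ± 2.43 over wildtype (edgeR, adjusted p = 0.539) and 4.84 ± 2.02 over mutant (edgeR, adjusted p = 0.208), did not pass. Without M3 egg 8 they were 3.66 ± 2.34 (edgeR, adjusted p = 0.352) and 7.05 ± 2.22 (edgeR, adjusted p = 0.0809). Of its transcript words, 32.7% recur in pseudogenes and other genes, mainly Obox3 pseudogenes.

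Some eggs held both genes, as the plot of single-egg counts shows. Of the 11 activated eggs with a count of either Obox3 or Obox6, 7 had both. One mutant egg, M3 egg 8 in batch 2, held 10 Obox3 and 8 Obox6 counts, which were 10 of 10 and 8 of 9 of those genes' counts in the M3 eggs of that batch. It also held 10 of 11 counts of Obox8, a relative on chromosome 7 outside the 6 genes. Obox8 had 16 counts in 5 activated eggs and 0 in the wildtype eggs of batch 2, and did not pass either (edgeR, adjusted p = 0.486 over wildtype). Other Obox genes were not analysed here.

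**Figure D5:**
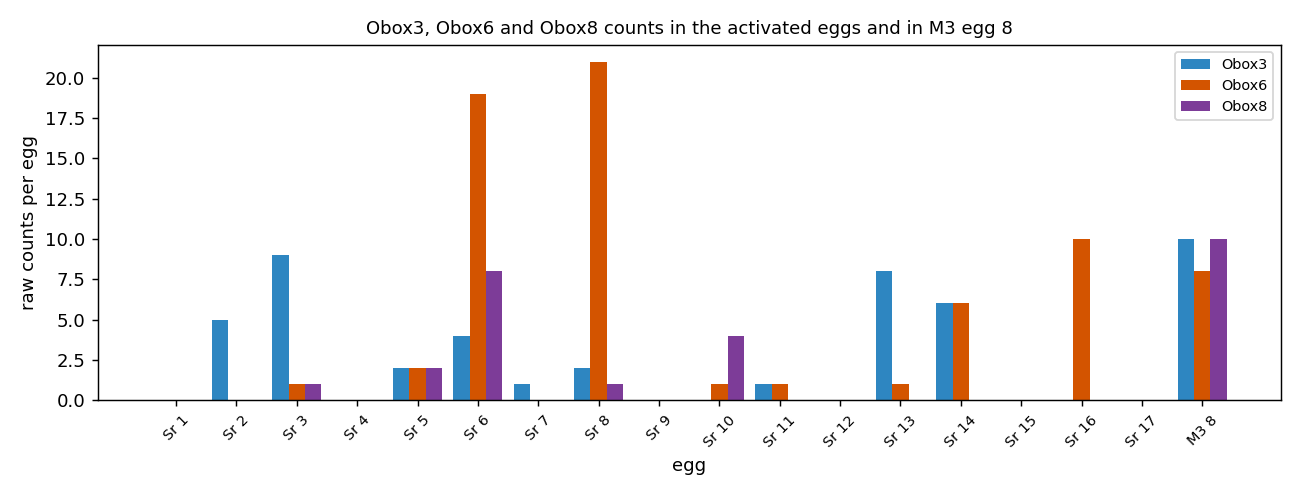
Raw counts of Obox3, Obox6 and Obox8 in each of the 17 activated eggs (Sr) and in mutant egg M3 8, as bars from 0. Obox6 reaches 19 and 21 counts in activated eggs 6 and 8, Obox3 9 counts in egg 3, and M3 egg 8 holds 10, 8 and 10 counts of Obox3, Obox6 and Obox8.

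The mutant groups were compared with each other in 9 sums per group and plate, where 4 of the 6 Obox genes were tested. M2 over M1 gave 0 called Obox genes, with 0% of 11609 genes called (edgeR). At an unadjusted p under 0.05 there were 2 of the 4, where 6.18% of all tested genes were under it, Obox5 with a log2 fold of -0.93 ± 0.24 and Obox1 with -0.66 ± 0.24, and DESeq2 called 0. In the M2 eggs, Obox5 was at 444 CPM on plate 1 and 327 CPM on plate 2, against 605 and 507 CPM in M1 eggs, and in batch 1 at 40.7 against 136 CPM. M2 was thus below M1 on every plate for Obox5. Its adjusted p was 0.686 (edgeR), and 0.0168 without the filter on low counts. M3 over M1 gave 0 called Obox genes, 0 at an unadjusted p under 0.05 (7.87% of all tested genes) and 0 by DESeq2, where 0.0517% of genes were called by edgeR (0.00861% higher, 0.0431% lower), with log2 folds from -0.33 (Obox5) to -0.08 (Obox2).

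Other genes of related function were taken from lists chosen with earlier results known. Of 29 tested genes of other homeobox families, 1 rose and 2 fell in mutant eggs, where 5.36% of all tested genes rose and 4.03% fell. In activated eggs against wildtype 2 rose and 6 fell, where 5.66% rose and 7.33% fell. Those that fell in activated eggs included Pou2f1, an octamer-binding factor, by 2.10 ± 0.40 on the log2 scale (edgeR, adjusted p = 0.00179), and Lhx8, an oocyte LIM homeobox factor, by 1.51 ± 0.34 (edgeR, adjusted p = 0.0068). Duxf3, a double-homeobox gene of early genome activation, rose from 1 count in wildtype eggs of batch 2 (0.184 CPM) to 554 counts in activated eggs (40.998 CPM; edgeR, adjusted p = 0.000106). Over mutant eggs, Pou2f1 fell by 1.64 ± 0.37 and Meis2 by 1.19 ± 0.32 (edgeR, adjusted p = 0.0139 and 0.0406). The median log2 fold of activated over wildtype was 0.19 for this list and 0.15 for all genes.

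Of 32 tested genes typical of the 2-cell stage, 19 rose and 0 fell in activated against wildtype eggs, in the comparison where 5.66% of all tested genes rose. Genes of this list near 0 in other eggs could enter the fit through the activated sum, where they could only rise. In the sums of mutant eggs alone, 9 of the list were tested. The counts out of 32, here and for mutant eggs below, thus partly reflect the filter. The genes that rose included Usp17la, a deubiquitinase, at 0 counts in wildtype eggs and 67.3 CPM in activated eggs. This was at least 122-fold higher than the floor of 3 counts in the wildtype sum of batch 2 (edgeR, adjusted p = 1.91e-05). Zfp352, a zinc finger gene, was likewise at 0 in wildtype eggs and at 107 CPM in activated eggs, at least 194-fold higher (edgeR, adjusted p = 2.67e-05). Neither gene was confined to activated eggs. The M3 sum of batch 2 held 746 counts of Usp17la (57.046 CPM) and 171 of Zfp352 (13.076 CPM). Each gene was seen in 2 of the 18 M3 eggs there, and the highest egg had 1520.4 CPM of Usp17la. Usp17la also passed in M3 over M1, at a log2 fold of 7.72 ± 1.12 (edgeR, adjusted p = 0.0396). In mutant eggs, 2 of the 32 rose, Arg2 by 1.27 ± 0.28 on the log2 scale and Duxf3 (edgeR, adjusted p = 0.00886 and 0.0154), where 5.36% of all tested genes rose. Of the 119 Duxf3 counts in mutant eggs of batch 2, all but 16 were in M3 egg 8, and without that egg Duxf3 did not pass (edgeR, adjusted p = 0.0667). Of 32 regulators of genome activation, 2 rose and 3 fell in activated against wildtype eggs, near the 5.66% and 7.33% of all tested genes. Chaf1b, a chromatin assembly subunit, rose by 3.36 ± 0.65 and Nfyc, a CCAAT-binding subunit, fell by 1.30 ± 0.33 (edgeR, adjusted p = 0.00213 and 0.014). Of 16 oocyte transcription factors, 0 rose and 2 fell in that comparison, Zfp296 by 2.81 ± 0.46 and Foxo3 by 1.02 ± 0.28 (edgeR, adjusted p = 0.000639 and 0.0209). Among oocyte markers, 8 of 20 fell and 0 rose, with Zar1 lower by 3.60 ± 0.31 (edgeR, adjusted p = 1.02e-05). These changes were not all particular to activated eggs. In mutant against wildtype eggs, Zfp296, Foxo3, Zar1 and Chaf1b also passed with the same sign, at log2 folds of -2.57, -0.71, -1.27 and 2.48. Nfyc, at -0.61, did not pass there.

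The genes whose scaled levels most resembled those of each member were sought among 5901 genes over the 9 sums after removing the batch. For Obox2 they were Ptpre (Pearson r = 0.982), Ctbp2 (0.953) and Smurf1 (0.95). For Obox5 they were Pld1 (0.988), Nfe2l2 (0.985) and the oocyte gene Oog3 (0.969). Obox1 was most like Lrch1 (0.977), Nexn (0.955) and Tesc (0.951), and Obox7 most like Kcnmb3 (0.975), Btk (0.956) and Tesc (0.955). Tesc was thus among the closest 3 for both Obox1 and Obox7. With 9 points and 5901 genes to choose from, the ranking is a description. For Obox6 (Capza1, Il7 and Garem1, 0.963 to 0.932) and Obox3 (Immp1l, Ampd3 and Prpf19, 0.916 to 0.905) the values rest on few counts.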

How the data were processed

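The authors deposited counts per gene, whole numbers without normalisation. Per the submitters' processing notes, STAR aligned the reads and HTSeq counted them, and GRCm38 and mm10 are named as the build; software versions, annotation and strandedness were not given in the sources used here. Raw counts of eggs were added up within each group and batch, giving 9 sums. In edgeR 4.0.16 under R 4.3.3, a model with group and batch terms used TMM scaling, kept genes by a minimum count of 10, and applied robust quasi-likelihood tests with Benjamini-Hochberg adjustment at 0.05. Mutant folds average M1, M2 and M3. The single activated sum is assumed to vary like the others. For contrasts between M1, M2 and M3, sums were formed by plate, and plate entered as a block. Standard errors were derived from the fold and its F value. The fit was tested on simulated data. CPM of eggs are raw, relative to the egg's own total; scaled CPM use TMM. Depth was 44 to 9132471 counts per egg.

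The 6 genes and all lists were chosen with earlier results of these data known. From each list, up to 3 called genes of lowest p per comparison could be named, or else the most abundant member, and, for each Obox gene, the 3 genes of at least 4 log2 CPM with the most similar profile. Other settings tried were 2 scalings (RLE, upper quartile), no filter, DESeq2 1.42.0, each sum left out, eggs thinned to 60000 counts, eggs under 10000 counts left out, 1 sum per plate, and dropping the batch or plate term. Added after the data were seen were leaving out M3 egg 8, the 9 concentrated wildtype eggs or activated eggs 6 and 8, leaving wildtype egg 38 out of an Obox3 ratio, adding Obox1 and Obox2 together, and a minimum of 100 Obox counts. Words and identities come from GENCODE M21, promoters from RefSeq.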

Additional observations from a re-analysis of the deposited data

Results flagged for a closer look

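Among 20 values tested in the groups of 4 or 5 eggs of batch 1, 3 had an egg far from the others, where chance gives about 1 in 20. Wildtype egg 5 was lowest for Obox1, at 38.7 CPM, and for Obox7, at 3.504 CPM. Mutant M1 egg 7 was highest for Obox3, at 1.15 CPM, which was 7 counts.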

How the results depend on the processing

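No paired analysis was possible because egg numbers only name eggs within a group and tie no eggs of different groups together; batch or plate, which the sums do share, was a term of the fit instead. Obox2 stayed lower in activated eggs in all 19 alternatives over wildtype and all 19 over mutant eggs, but was not called in 4 and 7 of them, the latter including upper quartile scaling (adjusted p = 0.0817, edgeR), sums per plate (0.16), no batch term (0.905), the sum of M1 in batch 1 (0.0572) or of M2 in batch 2 (0.2, log2 fold -0.83) left out, the concentrated wildtype eggs left out (0.122), and activated eggs 6 and 8 left out (0.0615). Leaving out M2 of batch 2 brought Obox5 over mutant eggs to 1.12 (adjusted p = 0.0461). Upper quartile scaling moved the median log2 fold of all genes from 0.15 to 0.30 over wildtype and from 0.05 to 0.20 over mutant eggs. It turned the split of calls in activated against wildtype eggs from 783 higher of 1797 to 993 of 1834, and against mutant eggs from 196 of 670 to 324 of 668. The causes of these shifts were not tested.

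Counts of called genes were 1298, 1797 and 670 for mutant over wildtype, activated over wildtype and activated over mutant. They were 51, 196 and 35 with no batch term and 409, 666 and 161 with sums per plate. Activated over mutant gave 1099 with no filter and 1038 with DESeq2. With each sum left out, the ranges were 755 to 1262, 1433 to 2106 and 380 to 1119. M2 over M1 gave 28 with DESeq2, 2 in thinned eggs, 45 with no filter, and 0 to 3 with each sum left out. M3 over M1 gave 6, and 59 with DESeq2, 18 in thinned eggs, 130 with no filter, 0 with no plate term, and 0 to 11 with each sum left out.

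No fold that changed sign was called. Without the concentrated wildtype eggs, mutant over wildtype was 0.20 for Obox1, 0.23 for Obox2, 0.037 for Obox5 and 0.23 for Obox7, and Obox7 was 0.30 in activated over wildtype and 0.074 over mutant. With no batch term, Obox5 and Obox7 were 0.15 and 0.090 in mutant over wildtype, and Obox7 was 0.76 in activated over wildtype and 0.67 over mutant. With upper quartile scaling Obox7 was 0.018 and 0.14 in the latter 2. In thinned eggs Obox1 was -0.10 in activated over wildtype, Obox7 0.047 over mutant, and Obox2 0.10 in M3 over M1, where no plate term gave 0.056. Without activated eggs 6 and 8, Obox7 was 0.038 over mutant. With each sum left out, mutant over wildtype ran from -0.32 to 0.018 (Obox1), -0.33 to 0.036 (Obox2), -0.58 to 0.35 (Obox5) and -0.40 to 0.20 (Obox7). Activated over wildtype ran from -0.10 to 0.14 (Obox1), -0.037 to 0.92 (Obox5) and -0.50 to 0.11 (Obox7). Activated over mutant ran from -0.0011 to 0.44 (Obox1) and -0.13 to 0.32 (Obox7). M3 over M1 ran from -0.45 to 0.039 (Obox1), -0.35 to 0.32 (Obox2) and -0.48 to 0.069 (Obox7).

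Shares of Obox genes in activated eggs moved by less than 1 SD in thinned eggs. A minimum of 100 Obox counts left out no activated egg, since the lowest had 137, and so tested nothing there. Activated eggs with an Obox3 count fell from 9 to 2 in thinned eggs. With words of 100 bases, the shared fraction was 40.9% for Obox1, 42.5% for Obox2, 15.9% for Obox3, 0.115% for Obox5, 0% for Obox6 and 2.69% for Obox7.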
